A study of Mus musculus with 6 samples.

Results

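Semaphorins, their plexin and neuropilin receptors, and a few proteins that work with them were measured in immortalized mouse embryonic fibroblasts (MEF) that lacked TIA1 or TIAR, a pair of related RNA-binding proteins. The genes were taken by symbol, not by their values on these arrays: every semaphorin of classes 3 to 7, every plexin, both neuropilins, the plexin domain containing proteins Plxdc1 and Plxdc2, and the collapsin response mediator proteins Crmp1, Dpysl2 and Dpysl3. The array held 53 probes for 36 such genes, among 55681 probes and 30187 gene names in all, probes named by a chromosome region rather than a gene not counted as names. WT MEF are labelled with the strain W4 and an intact genotype, TIA1 KO MEF with the strain BALB/c and loss of TIA1, and TIAR KO MEF with the strain C57BL/6 and loss of TIAR. Each group was read on 2 arrays from independent replicates of an immortalized line, without any treatment. Strain, cell line and genotype therefore cannot be told apart, and p-values measure only the spread between arrays of the same line. How the lines were immortalized, and whether each is a clone, is not given in the sources used here.

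Semaphorins are secreted or membrane-bound proteins that steer the movement of cells and of growing axons. Class 3 semaphorins are secreted and mostly bind a neuropilin, which passes the signal on through an A-type plexin, whereas the membrane-bound classes mostly bind plexins directly. Plexins then act on small GTPases, and the collapsin response mediator proteins carry the signal to the microtubules. In fibroblasts and other mesenchymal cells the system is known for its effects on adhesion, spreading and migration, and neuropilins also serve as co-receptors of VEGF.

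The brightest probe stood for each gene, and its value on an array is given as a normalized intensity on the log2 scale. Values of different probes are not comparable as levels. Of the 36 brightest probes, the scanner software placed 17 well above background on all 6 arrays. By array it placed 25 and 27 there in WT, 20 and 21 in TIA1 KO, and 29 and 30 in TIAR KO MEF. Of all 55681 probes it was 42.3% and 47.2%, 28.7% and 35.8%, and 44.5% and 46.7% in the same order. The lower count in TIA1 KO MEF was thus not particular to the 36 genes. Both TIA1 KO arrays stood apart, with a median intensity of 458 and 218 before normalization, against 119 to 152 on the WT and TIAR KO arrays. The larger departure was that of TIA1 KO replicate 1. Its negative controls had a median intensity of 196, against 88.6 to 119 elsewhere, and the 36 genes differed between the 2 TIA1 KO arrays by a median of 0.328 log2 units, against 0.143 in WT and 0.187 in TIAR KO MEF. All arrays lay on 1 slide, with the TIA1 KO arrays in another row than the other 4, so that position on the slide and TIA1 genotype cannot be told apart.

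The genes that the knockouts target were read first. Tia1 had log2 values of 10.72 and 8.54 in WT, 7.87 and 8.44 in TIA1 KO, and 9.56 and 9.58 in TIAR KO MEF. Its difference of -1.47 (SE 0.79) between TIA1 KO and WT MEF missed the test (adjusted p = 0.288). Of the other Tia1 probes, 1 differed by -1.62 (adjusted p = 0.116) and 1, well above background on a single array, by 0.87, and neither was called. For Tial1, which encodes TIAR, the brightest probe was left out on WT replicate 1 as an outlier spot and read 13.22 on WT replicate 2, 14.07 and 13.69 in TIA1 KO, and 9.57 and 11.6 in TIAR KO MEF (-2.63, SE 0.87, adjusted p = 0.2, in a fit without WT replicate 1). Its other probe read 11.71 and 11.09 in WT, 11.85 and 11.49 in TIA1 KO, and 10 and 9.65 in TIAR KO MEF. The log2 fold change of that probe was -1.58 (SE 0.26, adjusted p = 0.0254) in TIAR KO against WT MEF. For the brightest Tia1 probe and both Tial1 probes the arrays labelled as lacking the gene were the lowest, although each transcript was well above background on at least 1 such array. Where these probes lie relative to the disrupted part of each gene is not given in the sources used here.

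A gene was called changed at an adjusted p under 0.05, with p-values adjusted over all probes of the array, and a fold change above 2. In TIA1 KO MEF 7 of the 36 genes rose and 3 fell, compared with 2.99% and 1.79% of all gene names. In TIAR KO MEF 10 rose and 5 fell, compared with 4.78% and 3.07%. Between the knockouts, 2 genes were higher and 4 lower in TIAR KO than in TIA1 KO MEF, compared with 2.3% and 2.22%. The shares called were 27.8%, 41.7% and 16.7% of the 36 genes. The same shares were taken over probes that both arrays of at least 1 compared group measured well above background. A changed gene can pass this filter through its higher group alone, so no conclusion is drawn from these shares. They came to 38.5% of 26 genes against 8.65% of all gene names in TIA1 KO MEF, 46.9% of 32 against 14.6% in TIAR KO MEF, and 21.4% of 28 against 8.32% between the knockouts. The median log2 fold change of the 36 genes was 0.28 in the TIA1 KO and 0.43 in the TIAR KO line, and that of all gene names was -0.07 and -0.02.

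**Figure D1:**
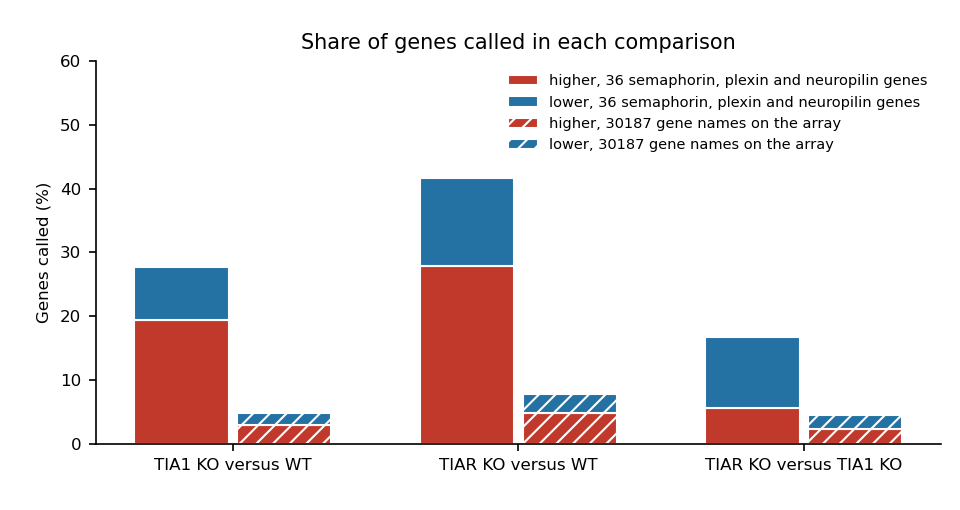
Percent of genes called (y axis) in each of the 3 comparisons, for the 36 genes (plain bars) and for all 30187 gene names (hatched bars), with genes higher in the first-named group in red and lower in blue. The 36 genes were called in 27.8%, 41.7% and 16.7% of cases.

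When either WT array was left out, limma called 0 of all probes in TIA1 KO MEF (7202 and 7415 at an unadjusted p under 0.05), so that no gene could keep a call there. With any 1 array left out, the log2 fold change ran from 3.03 to 3.06 for Sema3b, from 6.77 to 7.04 for Sema5a, from -4.63 to -4.24 for Plxdc2 and, at the widest, from 1.97 to 2.71 for Plxna2. Without TIA1 KO replicate 2, 19 of the 36 genes were called, compared with 19.3% of all probes. In TIAR KO MEF between 11 and 13 genes were called when any 1 array was left out, compared with 4.15% to 5.03% of all probes, and 8 of the 15 calls were kept each time, namely Crmp1, Nrp1, Plxdc2, Plxnb3, Sema3b, Sema4d, Sema4f and Sema7a. Scanner-processed intensities scaled to each array's 75th percentile gave 11 calls in TIAR KO and 2 between the knockouts (4.54% and 2.71% of all probes). In TIA1 KO MEF that scaling left 0 of all probes called (27765 at an unadjusted p under 0.05). Log2 fold changes there were 3.98 for Nrp1, 1.84 for Sema7a and 1.35 for Sema3f, beside a median of 1.98 over all probes. They were 10.28 for Sema5a and -5.35 for Plxdc2, each with 1 group not well above background. Under scaling to a common median, 6 genes were called higher and 11 lower in TIA1 KO MEF, compared with 3.37% and 25% of all probes. It was 8 higher and 6 lower for TIAR KO (2.56% and 4.88% of all probes), and 12 higher and 2 lower between the knockouts (13% and 1.91%). Among the 36 genes the balance of calls turned in the first and the last of these comparisons, and over all probes it turned in both comparisons with WT, while between the knockouts higher calls led in either setting (958 and 908, then 7242 and 1065). Of 12 other settings with all arrays kept, calls for the TIA1 KO line remained in 10 for Dpysl3, Nrp1, Plxdc2, Sema3b, Sema4d and Sema5a, in 7 for Sema3f and Sema7a, and in 6 for Plxna2 and Sema4c. In TIAR KO MEF each call was kept in 7 or more of them, with Plxna2 at 7. In a bulk culture, fewer cells with a transcript and less transcript per cell cannot be told apart.

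**Figure D2:**
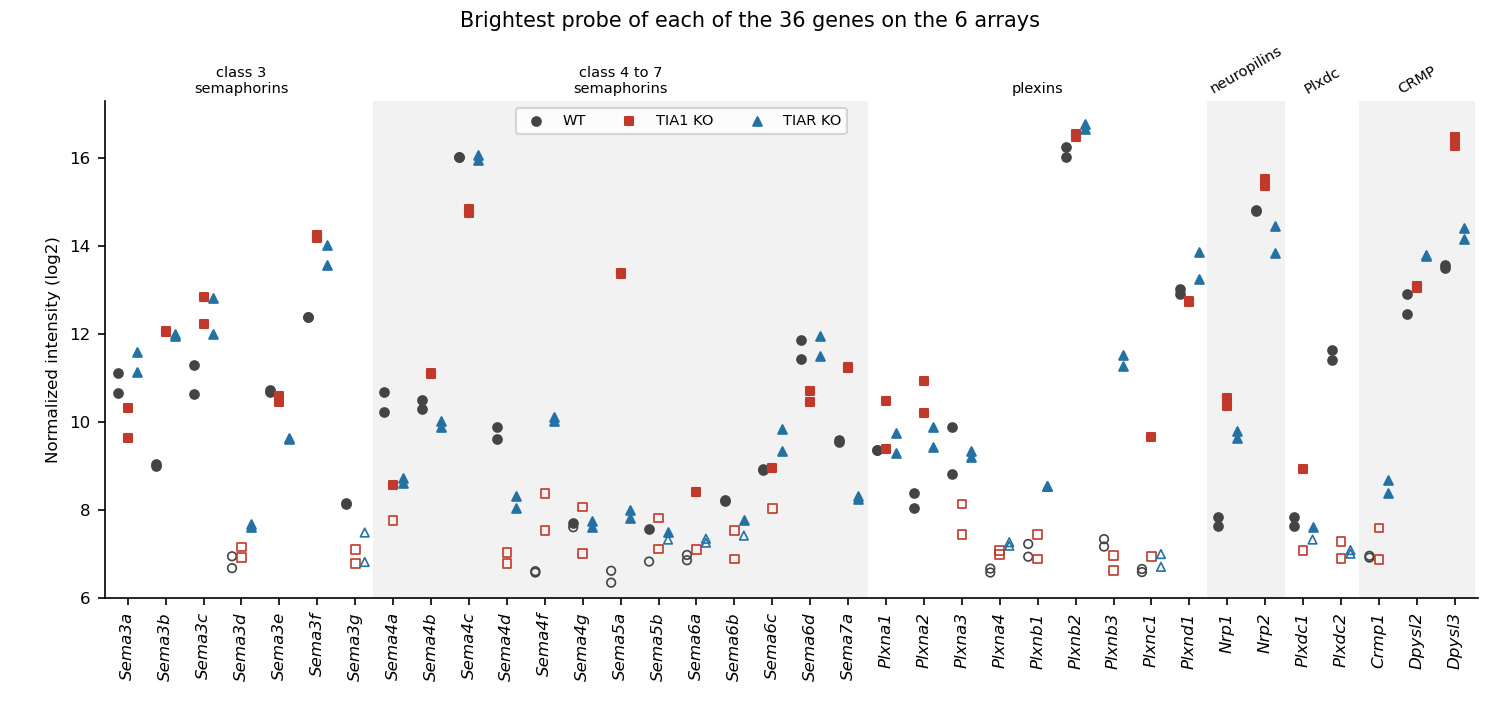
Normalized log2 intensity (y axis) of the brightest probe of each of the 36 genes (x axis, grouped by role) on the 2 arrays of WT (grey circles), TIA1 KO (red squares) and TIAR KO MEF (blue triangles). Filled symbols were rated well above background and open symbols were not; Sema5a stood at 13.39 and 13.37 in TIA1 KO and at 8 or below on the other arrays.

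Among the 7 secreted semaphorins, Sema3b and Sema3f rose in both knockouts, and Sema3e fell in TIAR KO MEF. Sema3b, which has been described as a growth suppressor in tumour cells, read 9 and 9.03 in WT, 12.07 and 12.04 in TIA1 KO, and 11.99 and 11.94 in TIAR KO MEF (probe at chr9:107500686-107500745, mm9). The knockout arrays lay well above the WT arrays and close to each other. The log2 fold change was 3.04 (SE 0.15, adjusted p = 0.0059) in the TIA1 KO and 2.96 (SE 0.14, adjusted p = 0.000527) in the TIAR KO line, or 8.25-fold and 7.76-fold. Sema3f, a ligand that acts mainly through Nrp2, read 12.38 and 12.39 in WT, 14.25 and 14.18 in TIA1 KO, and 13.56 and 14.03 in TIAR KO MEF (chr9:107583833-107583892). It rose by 1.83 (SE 0.15, adjusted p = 0.0167) and 1.41 (SE 0.20, adjusted p = 0.0161) on the log2 scale. In TIA1 KO MEF Sema3f kept its call in 7 of 12 other settings, with values from 0.23 to 1.83. Sema3f lost it with a common median, the replicate number as a block, a test of a fold above 2 and processed intensities. Its call in TIAR KO MEF was lost when either WT array or TIAR KO replicate 2 was left out.

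The probes of Sema3b and Sema3f lay 83.1 kb apart on chromosome 9. Sema3d, Sema3a, Sema3e and Sema3c on chromosome 5 had probes 1.02, 0.654 and 2.98 Mb apart, and none of these genes was called higher. Plxnb1 lay 1.44 Mb from Sema3f, and Plxnb3 and Plxna3 lay 0.572 Mb apart on the X chromosome. Plxnb1 and Plxnb3 were called higher in TIAR KO MEF, and Plxna3 was called in no comparison. Sema3e, a ligand of Plxnd1 that needs no neuropilin, read 10.68 and 10.73 in WT, 10.58 and 10.45 in TIA1 KO, and 9.63 and 9.6 in TIAR KO MEF (chr5:14256598-14256656). Its log2 fold change was -1.09 (SE 0.14, adjusted p = 0.0115) in TIAR KO MEF, a call that was kept only when WT replicate 1 was the array left out. Sema3c, a secreted semaphorin known for guiding neural crest cells into the heart's outflow tract, had log2 fold changes of 1.57 (SE 0.34) in the TIA1 KO and 1.45 (SE 0.35) in the TIAR KO line and missed the test in both (adjusted p = 0.0955 and 0.0781).

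The 13 membrane-bound semaphorins moved in both directions. In TIA1 KO MEF Sema5a and Sema7a rose and Sema4c and Sema4d fell, and in TIAR KO MEF Sema4f and Sema5a rose and Sema4a, Sema4d and Sema7a fell. Sema5a, whose extracellular part carries thrombospondin repeats beside the semaphorin domain, showed the largest difference of the 36 genes. It read 6.34 and 6.61 in WT, 13.39 and 13.37 in TIA1 KO, and 8 and 7.8 in TIAR KO MEF (chr15:32626025-32626084). Neither WT array was well above background, and the 3 groups did not overlap. Its log2 fold change was 6.91 (SE 0.17, adjusted p = 0.00362) in the TIA1 KO and 1.43 (SE 0.17, adjusted p = 0.00946) in the TIAR KO line, where the call was lost without TIAR KO replicate 1. Measured against the lowest value rated well above background on each WT array, Sema5a was at least 89.7-fold higher in TIA1 KO and at least 2.01-fold higher in TIAR KO MEF. All lower limits that follow were computed in this way. They are nominal, as the lowest rated value is not a detection limit. On TIA1 KO replicate 1 it was 8.03, yet the dimmer Plxnd1 probe read 9.01 there without that rating. On TIA1 KO replicate 2 it was only 5.78.

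Sema7a, a GPI-anchored semaphorin that signals through integrins as well as Plxnc1, rose in 1 knockout and fell in the other. Its values were 9.58 and 9.54 in WT, 11.23 and 11.25 in TIA1 KO, and 8.25 and 8.32 in TIAR KO MEF (chr9:57810607-57810666). The arrays of each group agreed closely, and the groups did not overlap. The log2 fold change was 1.68 (SE 0.15, adjusted p = 0.0193) in the TIA1 KO and -1.28 (SE 0.14, adjusted p = 0.0069) in the TIAR KO line. In TIA1 KO MEF Sema7a kept its call in 7 of 12 other settings, with values from 0.53 to 2.06. It lost the call with a common median, the replicate number as a block, a test of a fold above 2 and processed intensities. The call in TIAR KO MEF was kept in 10 of 12. Sema4f, a semaphorin of neurons and of Schwann cells, read 6.6 and 6.57 in WT, 7.52 and 8.37 in TIA1 KO, and 10.02 and 10.1 in TIAR KO MEF. Only the TIAR KO arrays were well above background, where it was at least 9.03-fold higher than in WT MEF (log2 fold change 3.48, SE 0.14, adjusted p = 0.000367).

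Other class 4 members were lower in a knockout. Sema4d, a ligand of Plxnb1 with roles in immune and bone cells, read 9.61 and 9.87 in WT, 6.77 and 7.03 in TIA1 KO, and 8.04 and 8.32 in TIAR KO MEF (chr13:51796617-51796676). It was reduced at least 4.62-fold in TIA1 KO MEF, where neither array was well above background (log2 fold change -2.84, SE 0.19, adjusted p = 0.0117), and 2.95-fold in TIAR KO MEF (-1.56, SE 0.18, adjusted p = 0.00842). Sema4a, which acts on T cells and endothelial cells, read 10.67 and 10.22 in WT, 7.76 and 8.57 in TIA1 KO, and 8.6 and 8.71 in TIAR KO MEF (chr3:88239906-88239965). It fell in TIAR KO MEF (-1.79, SE 0.20, adjusted p = 0.00718), a call lost without TIAR KO replicate 1, and the larger difference of -2.28 (SE 0.35) in TIA1 KO MEF missed the threshold (adjusted p = 0.0561). Sema4c, a ligand of Plxnb2, read 16.03 and 16.02 in WT, 14.84 and 14.75 in TIA1 KO, and 15.95 and 16.07 in TIAR KO MEF (chr1:36605998-36606057). Its log2 fold change was -1.23 (SE 0.15, adjusted p = 0.0374) in TIA1 KO MEF, while its difference in TIAR KO MEF was -0.02 (95% interval -0.38 to 0.34). The call was lost with a normexp offset of 16, the authors' log2 table, the replicate number as a block, treat (a test of a fold above 2) and processed intensities.

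Of the 9 plexins, Plxna2 rose in both knockouts, and Plxnb1 and Plxnb3 rose in TIAR KO MEF. None fell. Plxnb3, a receptor of Sema5a, read 7.33 and 7.16 in WT, 6.62 and 6.96 in TIA1 KO, and 11.26 and 11.52 in TIAR KO MEF (chrX:71017572-71017631). It was well above background on the TIAR KO arrays alone and at least 17.7-fold higher there than in WT MEF (log2 fold change 4.15, SE 0.17, adjusted p = 0.000367). Sema5a and its receptor Plxnb3 thus had their highest values in different knockouts. Plxnb1, the receptor of Sema4d, read 6.93 and 7.22 in WT, 6.88 and 7.44 in TIA1 KO, and 8.54 and 8.53 in TIAR KO MEF (chr9:109021856-109021915), which was at least 2.53-fold higher than in WT (1.46, SE 0.16, adjusted p = 0.00743). This call was lost without TIAR KO replicate 2. Plxna2, a receptor subunit for class 3 and class 6 semaphorins, read 8.04 and 8.39 in WT, 10.19 and 10.92 in TIA1 KO, and 9.88 and 9.42 in TIAR KO MEF (chr1:196642958-196643017). It rose by 2.34 (SE 0.32, adjusted p = 0.0443) and 1.43 (SE 0.23, adjusted p = 0.0226). The call in TIA1 KO MEF was lost with the authors' log2 table and with quantiles without loess, that in TIAR KO MEF without WT replicate 1, without TIAR KO replicate 1 and with all 3 groups fitted together, and both with treat and with processed intensities.

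Nrp1, a receptor subunit for class 3 semaphorins and for VEGF, rose in both knockouts. Its values were 7.84 and 7.62 in WT, 10.36 and 10.54 in TIA1 KO, and 9.79 and 9.64 in TIAR KO MEF (chr8:131026650-131026709). All 6 arrays were well above background, and every knockout array lay above both WT arrays. The log2 fold change was 2.72 (SE 0.17, adjusted p = 0.0102) in the TIA1 KO and 1.99 (SE 0.16, adjusted p = 0.00253) in the TIAR KO line, or 6.59-fold and 3.96-fold. Nrp2, its relative that prefers Sema3f and VEGF-C, was read by a pair of probes made for different transcripts. The brightest probe read 14.79 and 14.81 in WT, 15.52 and 15.36 in TIA1 KO, and 13.83 and 14.45 in TIAR KO MEF, and was called in no comparison (-0.67, SE 0.23, adjusted p = 0.194 in TIAR KO MEF). The other probe read 12.53 and 12.28 in WT, 12.45 and 12.42 in TIA1 KO, and 10.06 and 10.83 in TIAR KO MEF, and its log2 fold change was -1.96 (SE 0.29, adjusted p = 0.0177) in TIAR KO against WT MEF.

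The start of each probe is shown for Nrp2, Sema4f and Plxna2, each read by a pair of probes of which 1 was called against WT, so that the stretches each probe measured can be told apart. These are the first 30 of the 60 bases as the scanner files list them, 5′ to 3′, with positions of the whole probe on mm9 and no part marked by capitals.
Nrp2, brightest probe (chr1:62865129-62865188, + strand): tgagccagatcacgggaactcgagagcttt
Nrp2, other probe (chr1:62843298-62843357, + strand): ggtttctgttggctgtcattgtcatctcca
Sema4f, brightest probe (chr6:82862388-82862447, - strand): atggctttcatcagattctcaaggccttaa
Sema4f, other probe (chr6:82866429-82866488, - strand): cctcactctgaataattcagaatgactctc
Plxna2, brightest probe (chr1:196642958-196643017, + strand): catgtacctattgtaaatatgaaactccta
Plxna2, other probe (chr13:82317719-82317778, + strand): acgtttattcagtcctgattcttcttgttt

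The other probe of Sema4f was not well above background on any array and read 6.65 and 6.63 in WT and 6.72 and 7.06 in TIAR KO MEF, so the rise of Sema4f was seen by its brightest probe alone. The other probe that the files name Plxna2 is placed on chromosome 13 rather than on chromosome 1. It read 8.96 and 9.08 in WT, 7.78 and 8.56 in TIA1 KO, and 8.67 and 8.93 in TIAR KO MEF, and its log2 fold changes were -0.85 and -0.22 where those of the brightest probe were 2.34 and 1.43. When all probes of a gene were averaged, Plxna2 lost its calls in both knockouts, and Nrp2 was called lower in TIAR KO MEF. In all, 15 of the 36 genes had more than 1 probe.

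**Figure D3:**
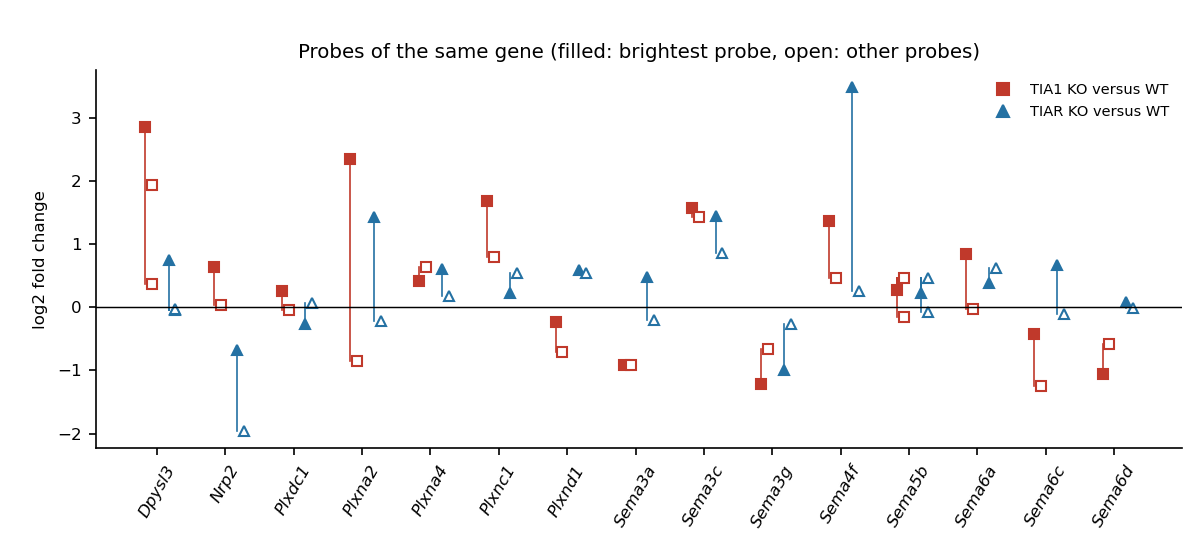
Log2 fold change against WT (y axis) of every probe of the 15 genes with more than 1 probe (x axis), for TIA1 KO (red squares) and TIAR KO MEF (blue triangles), with the brightest probe filled and lines joining probes of the same gene. In TIA1 KO MEF the probes of Plxna2 ran from -0.85 to 2.34 and those of Dpysl3 from 0.37 to 2.85, and in TIAR KO MEF those of Sema4f ran from 0.25 to 3.48 and those of Nrp2 from -1.96 to -0.67.

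Plxdc2, a transmembrane receptor with a plexin-like repeat, had the largest fall of the 36 genes in both knockouts. It read 11.41 and 11.63 in WT, 6.89 and 7.28 in TIA1 KO, and 7.08 and 7 in TIAR KO MEF (chr2:16673217-16673276). No knockout array was well above background. By the nominal limits, Plxdc2 was reduced at least 14.6-fold in TIA1 KO (log2 fold change -4.44, SE 0.21, adjusted p = 0.00582) and at least 20.8-fold in TIAR KO MEF (-4.48, SE 0.15, adjusted p = 0.000273). Its relative Plxdc1, also known as a marker of tumour endothelium, had differences of 0.26 (SE 0.66) and -0.27 (SE 0.18) that were not called.

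The collapsin response mediator proteins, which bind tubulin, were each called higher in at least 1 knockout. Dpysl3, known in mesenchymal and in growing neural cells, read 13.56 and 13.5 in WT, 16.48 and 16.28 in TIA1 KO, and 14.41 and 14.15 in TIAR KO MEF. It rose by 2.85 (SE 0.16, adjusted p = 0.00824) in TIA1 KO MEF, and its difference of 0.75 (SE 0.16) in TIAR KO MEF missed the test (adjusted p = 0.0557). Its other probes were not called against WT, with TIA1 KO differences of 1.93 (SE 0.36, adjusted p = 0.0793) and 0.37 (SE 0.17, adjusted p = 0.24). Dpysl2, the founding member that mediates growth cone collapse by Sema3a, read 12.45 and 12.9 in WT, 13.05 and 13.08 in TIA1 KO, and 13.76 and 13.79 in TIAR KO MEF (chr14:67421727-67421786). It was higher by 1.10 (SE 0.19, adjusted p = 0.0315) in TIAR KO MEF and kept this call when WT replicate 2 was left out, but not when any of the other 3 arrays was. Crmp1 read 6.91 and 6.95 in WT, 6.87 and 7.58 in TIA1 KO, and 8.68 and 8.39 in TIAR KO MEF (chr5:37683228-37683287), and was at least 2.77-fold higher in TIAR KO than in WT MEF (1.60, SE 0.16, adjusted p = 0.00543).

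**Figure D4:**
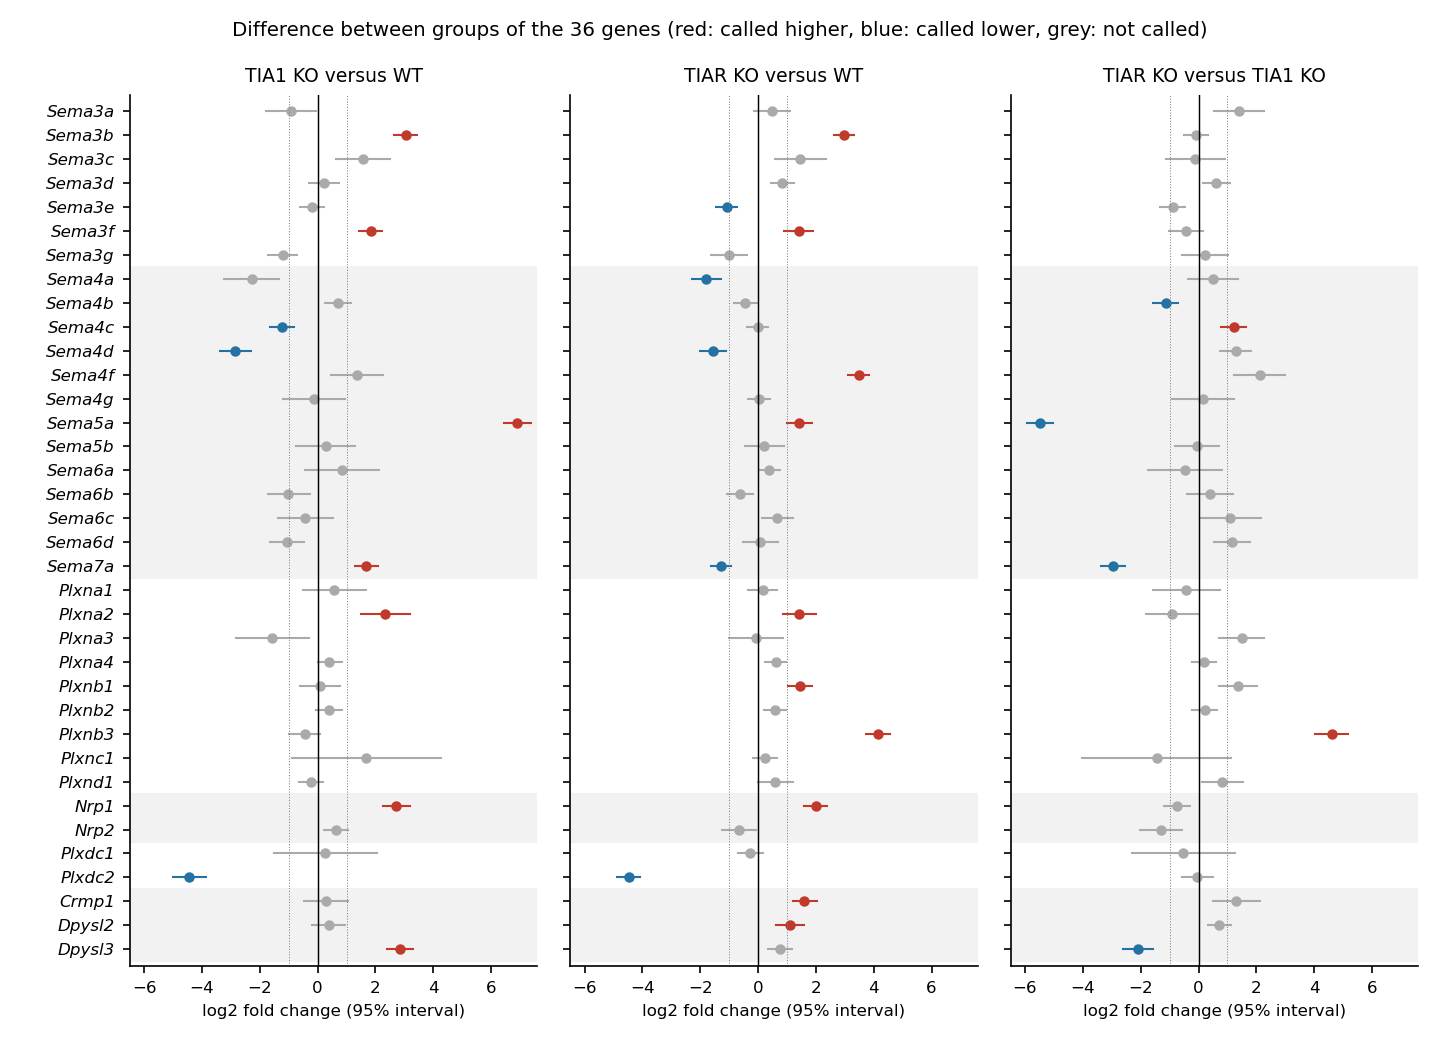
Log2 fold change with its 95% interval (x axis) of the 36 genes (y axis, grouped by role) in TIA1 KO versus WT, TIAR KO versus WT and TIAR KO versus TIA1 KO, with called genes in red (higher) or blue (lower) and dotted lines at a 2-fold change. Sema3b, Sema3f, Sema5a, Plxna2 and Nrp1 were called higher and Plxdc2 and Sema4d lower in both comparisons with WT.

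Across the comparisons with WT, which share the WT arrays, 8 genes were called in both, 2 in TIA1 KO alone and 7 in TIAR KO alone, compared with 2.39%, 2.39% and 5.47% of all gene names. Nrp1, Plxna2, Sema3b, Sema3f and Sema5a were higher in both, Plxdc2 and Sema4d were lower in both, and Sema7a went in opposite directions. The 250 bases before the transcription start are shown for 3 of the genes that were higher in both knockouts and for Sema7a. They come from RefSeq (GRCm38.p6), whose table matched 27 of the 36 genes and held no window for Sema3b, Sema3f or Plxdc2. Each is written 5′ to 3′ on the strand of the gene, with every GC box (GGGCGG, or CCGCCC on the other strand) in capitals. GC boxes are a common promoter element, and where they overlap the capitals run on.
Nrp1 (chr8:128358823-128359072, + strand): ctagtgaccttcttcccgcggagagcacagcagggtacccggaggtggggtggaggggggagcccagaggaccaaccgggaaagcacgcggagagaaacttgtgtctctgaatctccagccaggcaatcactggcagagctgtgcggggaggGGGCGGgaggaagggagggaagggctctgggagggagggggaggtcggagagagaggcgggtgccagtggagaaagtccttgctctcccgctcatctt
Plxna2 (chr1:194619579-194619828, + strand): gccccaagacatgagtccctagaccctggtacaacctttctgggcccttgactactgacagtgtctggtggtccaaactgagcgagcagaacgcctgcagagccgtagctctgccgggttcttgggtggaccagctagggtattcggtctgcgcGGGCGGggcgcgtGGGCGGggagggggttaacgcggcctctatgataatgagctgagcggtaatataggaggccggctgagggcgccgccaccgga
Sema5a (chr15:32244563-32244812, + strand): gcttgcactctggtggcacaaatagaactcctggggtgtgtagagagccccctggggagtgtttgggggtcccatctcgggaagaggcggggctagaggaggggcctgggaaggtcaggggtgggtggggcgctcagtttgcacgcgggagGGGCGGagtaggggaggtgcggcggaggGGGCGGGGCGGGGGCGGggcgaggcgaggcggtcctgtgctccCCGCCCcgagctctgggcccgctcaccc
Sema7a (chr9:57939862-57940111, + strand): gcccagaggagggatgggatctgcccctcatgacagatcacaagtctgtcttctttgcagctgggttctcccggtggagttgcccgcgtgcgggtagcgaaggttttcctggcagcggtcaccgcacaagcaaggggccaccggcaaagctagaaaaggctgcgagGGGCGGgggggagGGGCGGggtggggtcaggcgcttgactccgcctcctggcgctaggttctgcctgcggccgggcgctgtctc

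The 4 windows held 1, 2, 5 and 2 GC boxes in the order shown. Of the 39 windows of the 27 genes, some of which share a gene, 29 (74.4%) held a GC box on either strand, against 32.7% of 32851 promoter windows of the same length. A TATA box (TATAAA) was in 0 of the 39 windows and in 12.4% of all, a CCAAT box (CCAAT) in 7 (17.9%) and in 33.8%, an E-box (CACGTG) in 2 (5.13%) and in 6.02%, and an AP-1 site (TGACTCA) in 2 (5.13%) and in 4.46%. The median GC content was 64% in the 39 windows and 52.4% in all. These matches are of letters only and were not read against binding data.

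The knockouts were also compared with each other, in a fit without the WT arrays. The values were still normalized, and the brightest probes chosen, over all 6 arrays. Plxnb3 and Sema4c were higher in TIAR KO than in TIA1 KO MEF, and Sema5a, Sema7a, Sema4b and Dpysl3 were lower. For Sema5a the log2 difference was -5.48 (SE 0.16, adjusted p = 0.00464), or 44.6-fold. For Plxnb3 it was 4.60 (SE 0.21, adjusted p = 0.00733), at least 14.9-fold, since no TIA1 KO array was well above background. Sema7a differed by -2.96 (SE 0.15, adjusted p = 0.0083), Dpysl3 by -2.10 (SE 0.19, adjusted p = 0.0206) and Sema4c by 1.21 (SE 0.16, adjusted p = 0.0423). Of the dimmer probes of Dpysl3, 1 differed between the knockouts by -0.40 (adjusted p = 0.292), and the other read 7.6 and 8.46 in WT, 9.73 and 10.18 in TIA1 KO, and 8.13 and 7.85 in TIAR KO MEF, and differed between the knockouts by -1.97 (SE 0.24, adjusted p = 0.0368). Sema4b, a widely expressed class 4 semaphorin, read 10.29 and 10.5 in WT, 11.1 and 11.09 in TIA1 KO, and 10.02 and 9.89 in TIAR KO MEF (chr7:87371351-87371410), so that its arrays lay above WT in 1 knockout and below it in the other. Only the contrast between the knockouts passed the test (-1.14, SE 0.15, adjusted p = 0.0459). Of 12 other settings, Sema4b kept this call in 4 and Sema4c in 5. Dpysl3 kept its call in 7, with values from -2.12 to -1.01, Plxnb3 in 9, and Sema5a and Sema7a in 11. With the replicate number as a block, 0 of all probes were called (10684 at an unadjusted p under 0.05). For Sema3b the difference was -0.09 (95% interval -0.49 to 0.32) and for Plxdc2 -0.05 (-0.59 to 0.50), the latter near background. When either TIAR KO array was left out, 0 of all probes were called in this comparison (6318 and 6402 at an unadjusted p under 0.05). With any 1 array left out, the difference ran from -5.58 to -5.38 for Sema5a and from 1.15 to 1.27 for Sema4c.

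The other 18 genes were called in no comparison by their brightest probe. Their log2 fold changes ran from -1.56 for Plxna3 to 1.68 for Plxnc1 in TIA1 KO MEF and from -0.99 for Sema3g to 1.45 for Sema3c in TIAR KO MEF. Plxnc1, the receptor of Sema7a, read 9.66 on TIA1 KO replicate 1 and 6.93 on TIA1 KO replicate 2, with 6.65 and 6.58 in WT and 6.7 and 6.99 in TIAR KO MEF. That single array set its difference. Plxnb2, the receptor of Sema4c, read 16.24 and 16.02 in WT, 16.54 and 16.48 in TIA1 KO, and 16.78 and 16.66 in TIAR KO MEF, with 95% intervals of the difference from -0.07 to 0.83 and from 0.19 to 0.98. Sema3d passed the adjusted p in TIAR KO MEF (0.0425) at a fold change of 1.79, under the fold threshold. Plxna4 was well above background on no array.

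Other genes of the pathway were counted in 4 lists. Of 19 co-receptors and partners of semaphorins or neuropilins, 4 rose and 1 fell in each knockout, compared with 2.99% and 1.79% of all gene names in TIA1 KO MEF, and with 4.78% and 3.07% of them in the TIAR KO line. Flt1, a VEGF receptor, had the largest change in both and read 10.62 and 10.29 in WT, 13.6 and 13.43 in TIA1 KO, and 13.54 and 12.94 in TIAR KO MEF (log2 fold changes 3.06, SE 0.19, adjusted p = 0.00978, and 2.79, SE 0.25, adjusted p = 0.00359). Of 18 GTPases and their regulators, 2 rose in TIA1 KO MEF, and 3 rose and 1 fell in TIAR KO MEF. Farp1, a guanine nucleotide exchange factor that binds plexins, read 12.75 and 12.15 in WT, 15.32 and 15.15 in TIA1 KO, and 14.01 and 14.3 in TIAR KO MEF, and rose by 2.78 (SE 0.26, adjusted p = 0.0221) and 1.70 (SE 0.25, adjusted p = 0.0169). These changes were the largest of the list in each knockout.

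Of 15 cytoskeletal effectors and kinases, 1 fell in TIA1 KO MEF, compared with 1.79% of all gene names, and 2 rose and 1 fell in TIAR KO MEF, compared with 4.78% and 3.07%. Limk1, the kinase that inactivates cofilin, read 12.45 and 12.61 in WT, 10.04 and 10.41 in TIA1 KO, and 11.03 and 10.93 in TIAR KO MEF, with log2 fold changes of -2.30 (SE 0.20, adjusted p = 0.0194) and -1.55 (SE 0.15, adjusted p = 0.00455). Mical1, an oxidoreductase that disassembles actin filaments, rose most in TIAR KO MEF (2.16, SE 0.40, adjusted p = 0.0377), from 10.88 and 11.75 in WT to 13.03 and 13.91. Of 8 proteases that cut semaphorins, 1 rose in the TIA1 KO and 3 in the TIAR KO line (2.99% and 4.78% of all gene names), with Mmp14, a membrane-bound matrix metalloproteinase, among both. Mmp14 read 10.37 and 10.53 in WT, 12.26 and 12.41 in TIA1 KO, and 12.73 and 12.65 in the TIAR KO line, with log2 fold changes of 1.89 (SE 0.16, adjusted p = 0.019) and 2.24 (SE 0.15, adjusted p = 0.00136), the largest of the list.

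Between the knockouts, 3 of the co-receptors were higher and 1 lower in TIAR KO MEF, 2 of the proteases were higher (2.3% of all gene names were higher and 2.22% lower), and no GTPase, regulator, effector or kinase was called by limma, where 5 of 18 and 6 of 15 had an unadjusted p under 0.05. Itga1, an integrin chain, read 6.78 and 7.34 in the TIA1 KO and 9.81 and 9.41 in the TIAR KO line, which was at least 3.79-fold higher (2.54, SE 0.28, adjusted p = 0.0316). Pcsk6, a proprotein convertase, read 7.33 and 8.04 in the TIA1 KO and 10.91 and 11.33 in the TIAR KO line, at least 8.51-fold higher (3.44, SE 0.32, adjusted p = 0.0222). The medians of the lists, at 0.23, -0.23, -0.14 and 0.62 in the TIA1 KO and 0.17, -0.14, 0.11 and 0.67 in the TIAR KO line in the order given, lay beside -0.07 and -0.02 for all gene names.

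Markers of the labelled cell type also differed between the groups. Of 10 fibroblast markers, 7 rose in the TIA1 KO and 8 in the TIAR KO line, against 2.99% and 4.78% of all gene names, and none fell. Col3a1, a fibrillar collagen, read 9.52 and 9.08 in WT, 15.59 and 15.65 in TIA1 KO, and 15.16 and 16.65 in TIAR KO MEF. Thy1, a surface marker of fibroblasts, read 6.63 and 6.98 in WT, 7.11 and 7.48 in TIA1 KO, and 14.84 and 14.74 in TIAR KO MEF. The summed intensity of the list, on a linear scale, was 533000 and 567000 in WT, 1310000 and 1290000 in TIA1 KO, and 1390000 and 1420000 in TIAR KO MEF. The probe of S100a4 gave the largest part of this sum on the WT arrays and on TIAR KO replicate 2, and that of Col1a2 on the other 3, and without S100a4 the sum was 322000 and 304000 in WT and between 1040000 and 1090000 on the knockout arrays. Pdgfra was well above background on neither WT array, and Thy1 on neither TIA1 KO array, whereas Vim was on all 6. The WT arrays thus read lower for this list than those of both knockouts, and its part in the differences reported above was not tested.

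Lists of markers of other cell types were partly above background. Of all probes, 28.7% and 35.8% were well above background on the TIA1 KO arrays, against 42.3% to 47.2% on the other arrays. Of the macrophage list, 5 of 7 genes were well above background on each WT array, 3 and 4 on the TIA1 KO and 4 on each TIAR KO array. Of the neuron list it was 5 and 6 of 8 in WT, 2 and 3 in TIA1 KO and 5 on each TIAR KO array, and of the epithelial list 3 of 6 in WT, 1 and 3 in TIA1 KO and 4 on each TIAR KO array. Ptprc and Emr1 of the macrophage list, Rbfox3 and Nefl of the neuron list, Cdh5, Tie1, Emcn and Esam of the endothelial list, and Gfap, S100b and Olig2 of the glia and neural crest list were well above background on no array. Within the macrophage list of 7 genes, 1 rose in the TIA1 KO and 2 fell in the TIAR KO line (2.99% and 3.07% of all gene names). The summed intensity was 11400 and 10700 in WT, 21100 and 18700 in TIA1 KO, and 9960 and 9880 in TIAR KO MEF. Itgam, an integrin chain of myeloid cells, gave 61% and 57.5% of the sum in TIA1 KO MEF and was the gene called there (log2 fold change 1.82). Without it the sum was 7450 and 7920 in WT, 8230 and 7970 in TIA1 KO, and 6180 and 6190 in TIAR KO MEF. Negative fold changes were found for 4 of its genes in TIA1 KO MEF (median -0.33), among them Aif1 (-1.98, adjusted p = 0.0518). The neuron list of 8 genes had no gene called by limma against WT (4 and 1 at an unadjusted p under 0.05) and summed to 5820 and 4730, 8940 and 8570, and 6140 and 6660 in WT, TIA1 KO and TIAR KO MEF. Snap25, a protein of synaptic vesicle fusion, gave 70.5% and 67.5% of the sum in TIA1 KO MEF (log2 fold change 1.52, adjusted p = 0.0581), and without it the sums were 3280 and 2970 in WT, 2640 and 2790 in TIA1 KO, and 3980 and 4760 in TIAR KO MEF. In TIA1 KO MEF the fold changes of Map2 (-2.28, adjusted p = 0.0531), Elavl4 (-1.20, adjusted p = 0.0634) and Elavl3 (-0.75, adjusted p = 0.145) were negative. Of 6 epithelial markers, 1 rose in the TIA1 KO and 3 in the TIAR KO line (2.99% and 4.78% of all gene names). The sums, of which Krt18 gave the largest part in the latter, were 1180 and 1080 in WT, 1300 and 1620 in TIA1 KO, and 2540 and 2510 in TIAR KO MEF. Positive log2 fold changes against WT numbered 3 of 6 in each knockout. Krt5 (-0.59 and -0.58) and Krt14 (-0.81 and -0.27) were negative in both, and Epcam (-0.11) in the TIAR KO line, all without a call. The endothelial list of 7 and the glial list of 6 genes had 0 calls against WT (1 and 2, and 0 and 0, at an unadjusted p under 0.05) and summed to between 912 and 1330 on every array. Between the knockouts, 3 of 10 fibroblast markers were higher in TIAR KO MEF, among them Thy1, at least 131-fold. Of the macrophage list 1 was higher and 2 were lower, of the neuron list 1 (Map2) and 1 (Snap25), and of the epithelial list 2 were higher. Of all gene names, 2.3% were higher and 2.22% lower. The endothelial and glial lists had 0 calls by limma there (0 and 1 at an unadjusted p under 0.05). The part of these lists in the differences of the 36 genes was not tested.

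**Figure D5:**
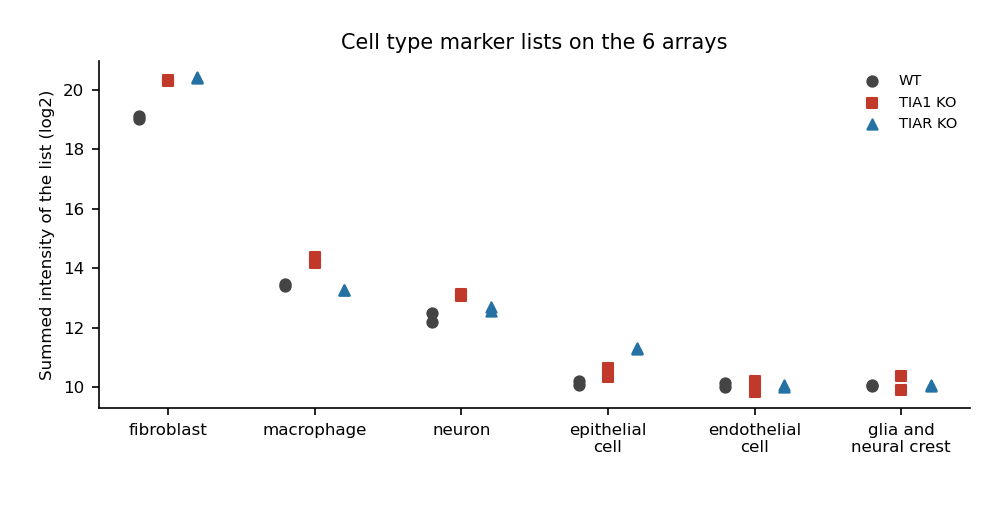
Summed intensity of each marker list (y axis, log2) on the 2 arrays of WT (grey circles), TIA1 KO (red squares) and TIAR KO MEF (blue triangles). The fibroblast list stood near 19 in WT and above 20 in both knockouts, and the macrophage list, at 14.37 and 14.19 in TIA1 KO MEF, drew 61% and 57.5% of its sum there from Itgam.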

How the data were processed

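Total RNA of the 3 MEF lines was read on 6 one-colour Agilent arrays. Per the file headers, the deposited intensity of each spot came from Agilent Feature Extraction 10.7.3.1 and was not normalized between arrays, and probes are placed on mm9. The authors also deposited normalized log2 values, with limma named in the submitters' processing notes; these served as an alternative. Here the mean intensity and the local background were corrected by normexp (offset 50), taken to log2, and normalized by 1 pass of cyclic loess and by quantiles, after the methods of the study. Control spots and spots marked as outliers were left out, and spots of a probe were averaged. No spot was saturated on any array, and 2 arrays per group limit the precision. A probe was taken as well above background where the scanner software rated 50% or more of its spots that way.

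Each comparison was fitted with limma 3.58.1 in R 4.3.3 (lmFit and eBayes) on its own 4 arrays, with Benjamini-Hochberg adjustment over 55681 probes, and was tested on simulated data first. The other scalings, filters, probe rules and tests that were tried are given with their effect in the closing section.

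The genes, the pathway lists and the marker lists were chosen with earlier results of these data known, although membership was set by symbol and not by a threshold on values. Genes whose brightest probe (highest mean over all arrays) was called in at least 1 comparison are described in full, a gene with only another probe called (Nrp2) with that probe, other genes by ranges and counts, and each pathway list by its called gene with the largest change per comparison. A few further genes (Sema3c, Sema3d, Plxnc1, Plxnb2, Plxdc1) were chosen after their values were seen. Of 53 probes, 45 matched a RefSeq accession, all with the same symbol. A lower limit of a fold ("at least") sets each array of the dim group to its lowest log2 value rated well above background, or leaves the measured value where that is higher. Such a limit is nominal, since brighter probes on the same array could lack that rating. Motifs were counted with Python 3.11.15. Whether a probe lies in an exon or UTR was not analysed here, and 1 marker gene is not reported by name.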

Additional observations from a re-analysis of the deposited data

Results flagged for a closer look

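These 6 genes differed between the knockouts in the direct test with limma (at an adjusted p under 0.05 and more than 2-fold), and each value is TIAR KO minus TIA1 KO on the log2 scale. Sema5a (-5.48), Sema7a (-2.96) and Dpysl3 (-2.10) were lower in TIAR KO MEF, and Plxnb3 was higher (4.60). Sema4c (1.21) and Sema4b (-1.14) differed by little more than the fold threshold. Of 12 other settings, Sema4b kept its call in 4, with values from -1.20 to -0.12, and Sema4c in 5, and both were lost with the authors' log2 table, with a normexp offset of 16 and with quantiles alone. Dpysl3 kept its call in 7, with values from -2.12 to -1.01, Plxnb3 in 9, and Sema5a and Sema7a in 11. With the replicate number as a block, 0 of all probes were called (10684 at an unadjusted p under 0.05), so that all 6 calls were lost. When either TIAR KO array was left out, 0 of all probes were called, and the difference stayed between -5.58 and -5.38 for Sema5a, 4.44 and 4.77 for Plxnb3 and -2.99 and -2.92 for Sema7a with any 1 array left out. Markers differed between the knockouts too, with 3 of 10 fibroblast, 3 of 7 macrophage, 2 of 8 neuron and 2 of 6 epithelial markers called. Of all gene names, 4.53% were called. The part of slide position, strain, cell line and these marker lists in the differences of the 6 genes was not tested.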

How the results depend on the processing

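None of the fold changes of called genes reversed under the settings tried. Of the values of single genes, 356 kept their call and direction under the planned settings and 109 lost the call, and under the setting chosen after seeing the data, processed intensities scaled to the 75th percentile of probes well above background on all arrays, 12 kept it and 19 lost it. Of the 36 genes, 10 were called in TIA1 KO MEF, 15 in TIAR KO MEF and 6 between the knockouts. Of all probes it was 3.54%, 5.76% and 3.35%, and the share of all probes stands in brackets below. In TIA1 KO MEF the number became 0 with processed intensities under either scaling (0%), 17 with a common median (28.4%) and 6 when a fold above 2 was itself tested (treat; 0.79%). In TIAR KO MEF it became 5 with treat (1.82%). Between the knockouts it became 2 with processed intensities under either scaling (2.71% and 2.03%), 14 with a common median (14.9%), 12 with only probes well above background (12.1%), 11 with all 3 groups fitted together (5.72%) and 3 with treat (0.735%). Leaving out 1 array gave 0 (without either WT array, 0%) to 19 (without TIA1 KO replicate 2, 19.3%) in TIA1 KO MEF, 11 to 13 in TIAR KO MEF (4.15% to 5.03%), and 0 (without either TIAR KO array, 0%) to 17 (without TIA1 KO replicate 2, 18.1%) between the knockouts; the lone array was taken to vary like the other group. With the replicate number as a block, 7, 16 and 0 genes were called (1.21%, 5.94% and 0% of all probes), the last with 10684 at an unadjusted p under 0.05; correlations of the deviations of equal numbers were 0.078 (WT and TIA1 KO), 0.03 (WT and TIAR KO) and -0.073 (the knockouts) over all probes, and 0.28, 0.018 and -0.074 over probes well above background on all arrays, and the labels give no link between equal numbers. The cause of these shifts was not tested. Processed intensities scaled to the 75th percentile moved the median of all probes, as a log2 fold change, to 1.98, -0.04 and -1.85 in the order of comparisons given, but that of probes well above background on all arrays to -0.21, -0.16 and 0.05. Relative to the first median Sema3f and Sema7a in TIA1 KO MEF and Sema4b between the knockouts turned direction, and relative to the second no called gene did. A common median moved the medians of all probes to -0.67, -0.02 and 0.63, and those of probes well above background on all arrays to -1.53, -0.44 and 1.09. Tia1 passed the test under a common median (-2.14, adjusted p = 0.000162), and Tial1 with its probes averaged (-1.73, adjusted p = 0.0383) and without TIAR KO replicate 2 (-3.65, adjusted p = 0.0222). Slide as a block was not run, as all arrays share 1 slide.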
